A study of Oryctolagus cuniculus with 9 samples.

Results

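Collagens are secreted or membrane-bound proteins built from 3 chains wound into a triple helix, and each chain is the product of its own gene. Genes of this family were chosen by name: 43 of the 28788 gene rows in the count table carry a symbol made of COL, a type number, A and a chain number. Of these, 40 reached at least 10 counts in at least 3 of the 9 libraries and are described here. They comprise 10 fibrillar chains, 8 network chains, 8 chains of the FACIT class (collagens that sit on fibrils and whose helix is interrupted), 5 microfibrillar chains, 4 transmembrane chains, 2 multiplexins, the anchoring fibril chain COL7A1 and 2 chains of other kinds. COL9A1, COL10A1 and COL20A1 did not reach the minimum. COL9A1 had 4 counts in each of S7_3 and S9_2 and 0 elsewhere, COL10A1 had 4 counts in S9_1 alone, and COL20A1 had at most 15 counts in a library. COL5A1 was not analysed here.

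The series concerns a stent for repair of the urethra in the rabbit, and polyadenylated RNA of urethral tissue was sequenced. Titles of the 9 libraries begin with one of the codes S6, S7 or S9, 3 libraries per code, and end with a number that names the library within its code (S6_2, S9_4). The labels give no genotype, strain, age, treatment or time for a code, so no group was taken as a control and each contrast is between codes. They do not say that the libraries of a code came from separate animals, so p-values measure only the spread between these libraries. Total counts lay between 35127085 and 36832773.

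Fibrillar collagens give tissue its tensile strength, and types I and III form the bulk of the connective tissue around the urethra. Type V chains start and limit the width of these fibrils, FACIT collagens decorate their surface, and type VI forms beaded filaments beside cells. Type IV chains build the sheet-like network of basement membranes under epithelium and around smooth muscle cells and vessels, type VII anchors the epithelial basement membrane to the tissue below, and the multiplexins types XV and XVIII lie in the basement membrane zone.

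The libraries of a code were not alike. In S7_3, collagen chains took 10.7% of all counts, against 2.79% to 5.84% in the other 8 libraries. S7_3 was the highest of the 9 libraries for 17 of the 40 chains (42.5%), whereas it was the highest for 11.1% of the 17102 genes tested. S6_3 and S7_3 were together the highest 2 libraries for 10 chains (25%), against 8.30% of genes tested. A split of another kind ran across the codes: ATP6, a mitochondrially encoded gene, stood at 21.5 to 25.9 CPM (counts scaled to library size) in S6_4, S7_3 and S9_4 and at 1946 to 3258 CPM in the other 6 libraries, so each code holds 1 library of the low kind. Epithelial keratins (KRT5, KRT13, KRT19) and genes of smooth muscle (MYH11, ACTA2) were detected in every library. The uroplakins that define the surface cells of urothelium were near the detection limit: UPK1A, UPK2 and UPK3A did not exceed 3.65 CPM in any library, and UPK1A and UPK3A had 0 counts in S9_2. UPK1B reached 22.4 CPM in S9_1.

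Levels below are CPM scaled between libraries by the trimmed mean of M values, unless FPKM is named. FPKM divides also by gene length, so genes are compared with each other on that scale only. By mean FPKM over the 9 libraries, COL3A1 (3386), COL1A1 (2978) and COL1A2 (2444) led all chains. COL6A2 (251) and COL6A1 (251) followed far below, then COL4A1 (107), COL14A1 (106), COL5A2 (102), COL6A3 (81.3), COL16A1 (64.6), COL4A2 (62.9) and COL15A1 (61.3). COL1A1, COL1A2 and COL3A1 together held between 81.8% and 87.4% of collagen counts in each library.

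Summed over the 40 chains, S6_2, S6_3 and S6_4 stood at 32692, 45582 and 27280 CPM, S7_2, S7_3 and S7_4 at 45496, 114127 and 58046 CPM, and S9_1, S9_2 and S9_4 at 40918, 53856 and 36461 CPM. The means were 35185 ± 9402 (SD, n = 3) in S6, 72557 ± 36544 (SD, n = 3) in S7 and 43745 ± 9035 (SD, n = 3) in S9. Without S7_3 the S7 mean was 51771 CPM, and both its remaining libraries lay inside or just above the range of S9. The order of the mean class sums was the same in all 3 groups down to the multiplexins: fibrillar, microfibrillar, network, FACIT, multiplexin.

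**Figure D1:**
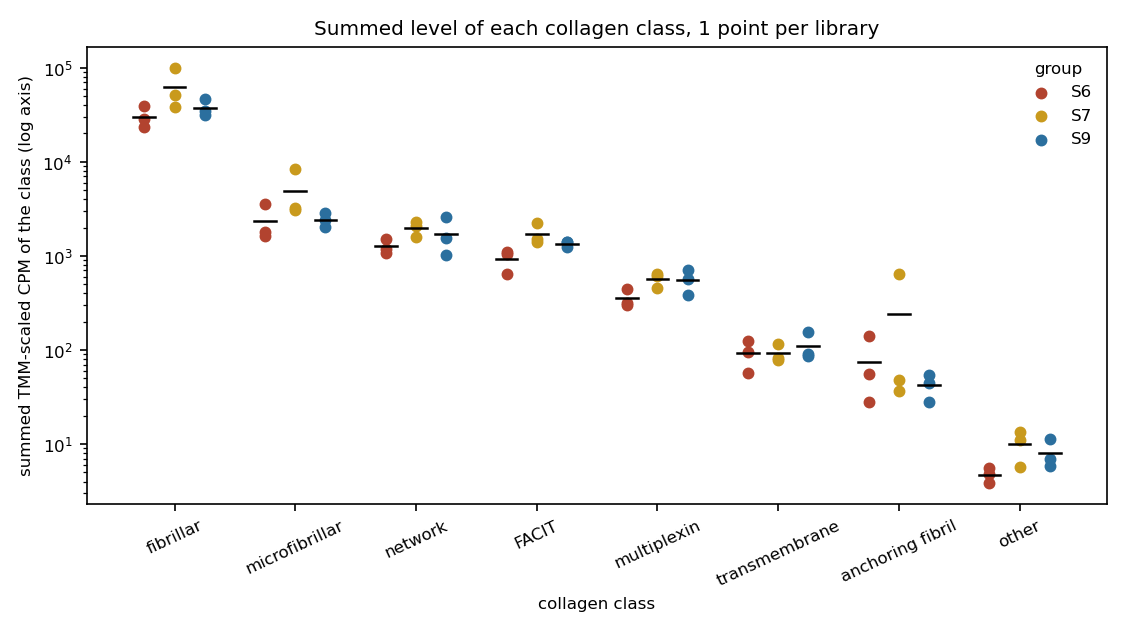
Summed TMM-scaled CPM of each collagen class on a log axis, with 1 point per library, colours for the groups and a bar at each group mean. Fibrillar chains lie between 23200 and 99753 CPM, and S7_3 is the highest S7 point in every class except the multiplexins and the chains of other kinds.

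Fold changes were tested with edgeR's quasi-likelihood method over all 17102 genes past its count filter, and p-values were adjusted by Benjamini-Hochberg with a threshold of 0.05. All 40 chains passed that filter. In S9 against S6, 3 of 40 chains rose (COL19A1, COL23A1 and COL6A6) and 0 fell, while 12.4% of all genes tested were called, 6.02% higher and 6.34% lower. At an unadjusted p under 0.05, 12 chains passed (11 higher, 1 lower), against 31.2% of all genes (15.4% higher). DESeq2 gave an adjusted p to 37 of the 40 chains and called 11 of them (29.7%), all higher, against 24.2% of genes (12% higher). limma-voom, run here and below with a weight for each library, called 10 of 40 chains (25%), all higher, against 23.7% of genes (12.2% higher). The median log2 fold change was 0.29 over the 40 chains and -0.01 over all genes tested. In 11 chains the libraries of S9 and S6 did not overlap, 10 of them higher in S9, against 35.5% of genes (18.6% higher). The difference between these shares of chains and of genes was not tested. The edgeR count of chains was 0 when S6_3, S6_4, S9_1 or S9_2 was left out, where 5.85%, 0.508%, 0% and 0.0228% of genes were called. It was 1 without S7_4 (6.81% of genes), 5 without S7_3 (11.8% of genes) and 5 without S9_4 (11.1% of genes). Of the 5 without S7_3, 4 were higher in S9 and 1, COL11A1, was lower, against 6.36% and 5.43% of genes. In the 6 libraries with high ATP6 alone, 0 chains and 7 genes were called, with log2 fold changes of 3.63 for COL19A1, 3.31 for COL6A6 and 0.85 for COL23A1, and the libraries with low ATP6 are too few for a value of their own.

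In S7 against S6, 0 of 40 chains passed the edgeR threshold, and 0.111% of genes did (19 genes). At an unadjusted p under 0.05, 12 chains passed, all higher in S7, against 17.1% of genes (8.68% higher). DESeq2 called 3 of them, COL19A1, COL1A1 and COL6A6, and 8.33% of genes (4.01% higher), and limma-voom called 0 chains and 1.79% of genes. The log2 fold change was above 0 in 37 of 40 chains, with a median of 0.83 against -0.01 over all genes tested. Without S7_3 it was above 0 in 32 chains with a median of 0.46, and in the 6 libraries with high ATP6 alone in 32 chains with a median of 0.35. Without both S6_3 and S7_3 it was above 0 in 37 chains with a median of 0.68. Libraries did not overlap in 5 chains, COL15A1, COL19A1, COL3A1, COL4A3 and COL6A6, all higher in S7, against 21.2% of genes (10.7% higher).

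In S9 against S7, 0 of 40 chains and 0 of all genes (0%) passed in edgeR, and limma-voom likewise called 0 chains and 0 genes. DESeq2 called 0 chains and 0.723% of genes. At an unadjusted p under 0.05, 8 chains passed, 2 higher and 6 lower in S9, against 9.21% of genes (4.15% higher, 5.06% lower). In 6 chains, COL11A1, COL4A4, COL5A3, COL6A1, COL6A2 and COL6A3, every S9 library lay below every S7 library, as did 8.81% of genes, and 17.2% of genes did not overlap in either direction. The 3 groups tested together gave 0 chains and 2.43% of genes. There, 12 chains had an unadjusted p under 0.05, against 25.1% of genes, DESeq2 called 10 chains and 20.2% of genes, and limma-voom called 5 chains and 13.7% of genes. The comparisons share libraries, so their counts are not independent of each other.

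**Figure D2:**
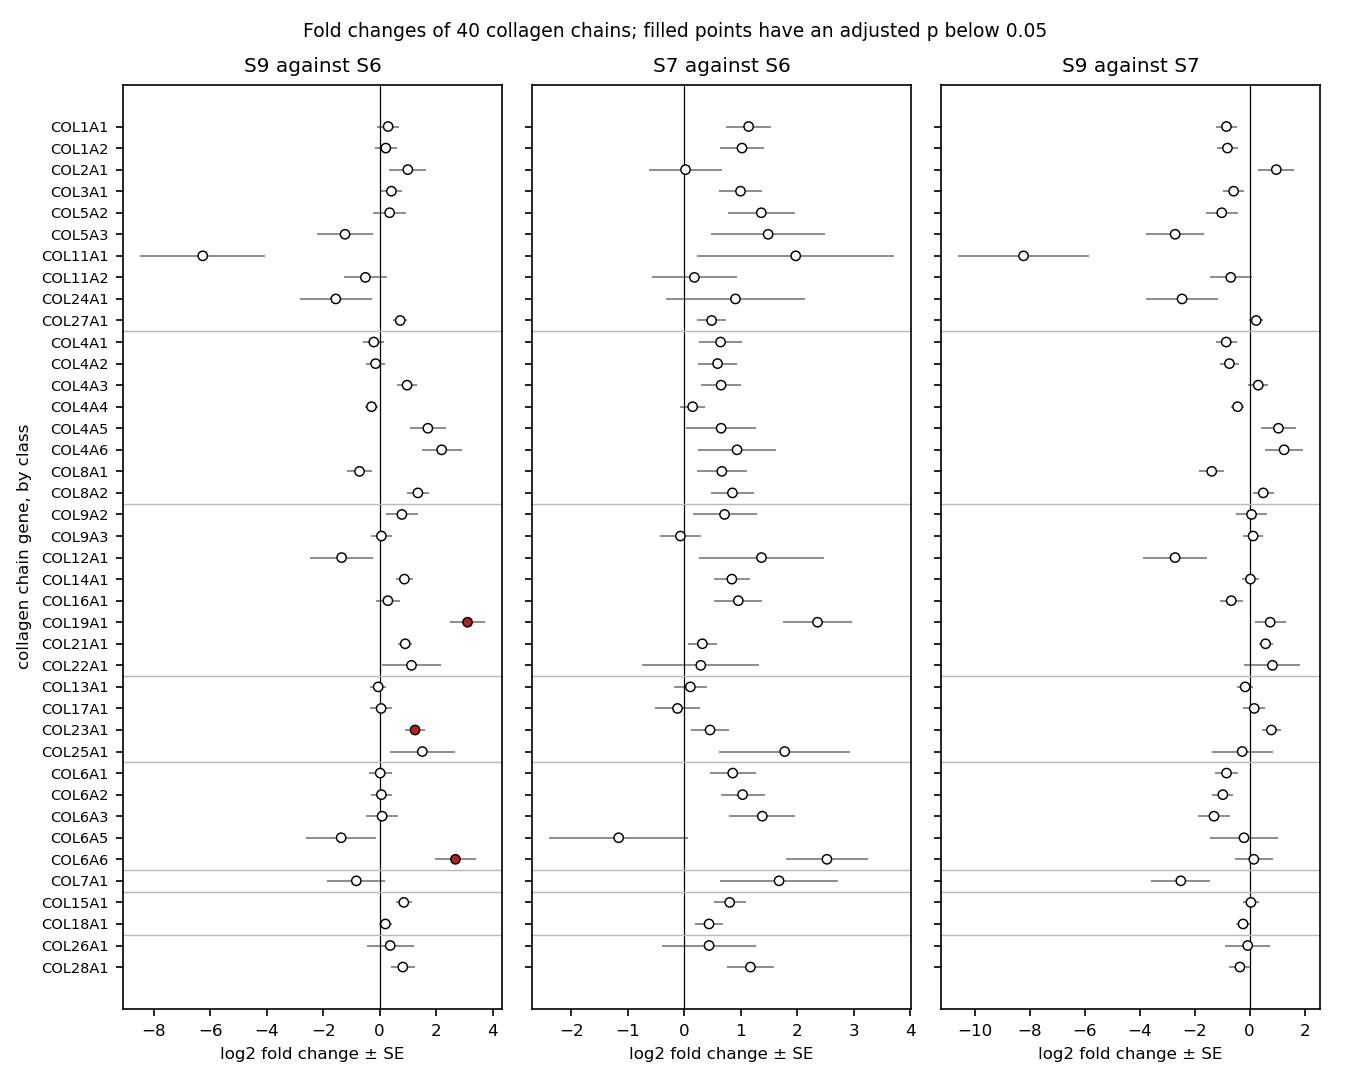
Log2 fold change with its standard error (SE) for each of the 40 chains in the 3 contrasts, ordered by class; filled points have an adjusted p under 0.05. The filled points are COL19A1, COL23A1 and COL6A6 in S9 against S6, and the widest bars belong to COL11A1.

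Type I and III chains are the main fibril formers. COL1A1 encodes the alpha1 chain of type I collagen. It measured 9079, 12864 and 7618 CPM in S6_2, S6_3 and S6_4, 12561, 35155 and 17579 CPM in S7_2, S7_3 and S7_4, and 11371, 14402 and 10568 CPM in S9_1, S9_2 and S9_4, and the values of other chains follow this order of libraries. S7_3 was the highest library and the groups overlapped. The log2 fold change in S7 against S6 was 1.14 (adjusted p = 0.194 in edgeR, SE 0.40), and 0.63 without S7_3. COL1A2, its partner chain, measured 8037, 10624 and 6322 CPM in S6, 9683, 27789 and 13378 CPM in S7 and 8910, 10576 and 9525 CPM in S9. COL3A1, which forms type III collagen alone, measured 10966, 14199 and 8890 CPM in S6, 14983, 33317 and 19764 CPM in S7 and 13944, 20384 and 11080 CPM in S9. Every S7 library of COL3A1 was above every S6 library, and the log2 fold change of 1.0 (SE 0.37) did not pass (edgeR adjusted p = 0.220).

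The balance of types III and I, often followed in scars, was taken as the ratio of COL3A1 to COL1A1 per length within each library. It lay between 0.956 and 1.43, at 1.17 ± 0.053 (SD, n = 3) in S6, 1.10 ± 0.128 (SD, n = 3) in S7 and 1.24 ± 0.185 (SD, n = 3) in S9. A two-sided exact permutation test of the log2 ratio over the 3 groups gave p = 0.532 (1680 arrangements, smallest possible p 0.0036). The 3 pairs gave exact p = 0.7 for S9 against S6, 0.6 for S7 against S6 and 0.4 for S9 against S7, where 3 against 3 libraries cannot go below 0.1, and all 4 adjusted values were 0.7. The log2 difference of S9 against S6 was 0.08 and became -0.03 without S9_2.

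COL5A2, a type V chain that starts fibrils, measured 292, 658 and 260 CPM in S6, 567, 2020 and 532 CPM in S7 and 488, 717 and 337 CPM in S9. S7_3 was 2.82 times the highest of the 7 libraries other than S6_3 and S7_3. COL5A3, another type V chain, was more unequal: 42.9, 276 and 69.2 CPM in S6, 92.0, 928 and 68.8 CPM in S7 and 58.0, 52.5 and 55.3 CPM in S9. Here S7_3 was 10.1 times and S6_3 was 3.0 times the highest of the other 7 libraries.

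COL11A1 encodes a minor fibril chain known from cartilage and from activated fibroblasts. It measured 1.06, 115 and 10.5 CPM in S6, 5.02, 477 and 16.3 CPM in S7 and 0.397, 1.04 and 0.212 CPM in S9. Its highest library was 2252 times its lowest, the widest span among the 38 chains with more than 3 counts in every library. All 3 S9 libraries lay below all S6 and S7 libraries, and the log2 fold change of S9 against S6, -6.26 (SE 2.22), did not pass (edgeR adjusted p = 0.0927). Of 22 alternative fits, 1 called it lower in S9, the edgeR fit without S7_3 (adjusted p = 0.0497). COL24A1, a fibrillar chain of low level, followed the same libraries with 0.894, 5.69 and 0.697 CPM in S6, 0.682, 12.5 and 0.490 CPM in S7 and 0.529, 1.10 and 0.847 CPM in S9.

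Cartilage genes were read beside these chains. COL2A1, the main cartilage fibril chain, was lowest in S7_3 (2.51 CPM) and reached 22.5 CPM in S9_2, whereas ACAN, the large cartilage proteoglycan, stood at 81.8 CPM in S7_3, 7.39 CPM in S6_3 and at most 3.54 CPM elsewhere. MATN1 did not exceed 0.117 CPM in any library. COL11A2, the other type XI chain measured, was between 0.409 and 2.37 CPM and was also highest in S7_3. COL27A1, a fibrillar chain with a short helix, measured 22.6, 33.2 and 22.7 CPM in S6, 30.9, 48.7 and 30.3 CPM in S7 and 43.0, 52.3 and 34.4 CPM in S9. Its S9 libraries all lay above its S6 libraries, with a log2 fold change of 0.73 (adjusted p = 0.0905 in edgeR, SE 0.25).

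Fibrillar chains as a class had 6 of 10 log2 fold changes above 0 in S9 against S6 (median 0.26) and 10 of 10 in S7 against S6 (median 1.01), with 0 called in either. Without S7_3 the S7 against S6 values were above 0 in 6 of 10 with a median of 0.35, and without both S6_3 and S7_3 in 8 of 10 with a median of 0.60. In S9 against S7 the median was -0.83, and -0.14 without S7_3.

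**Figure D3:**
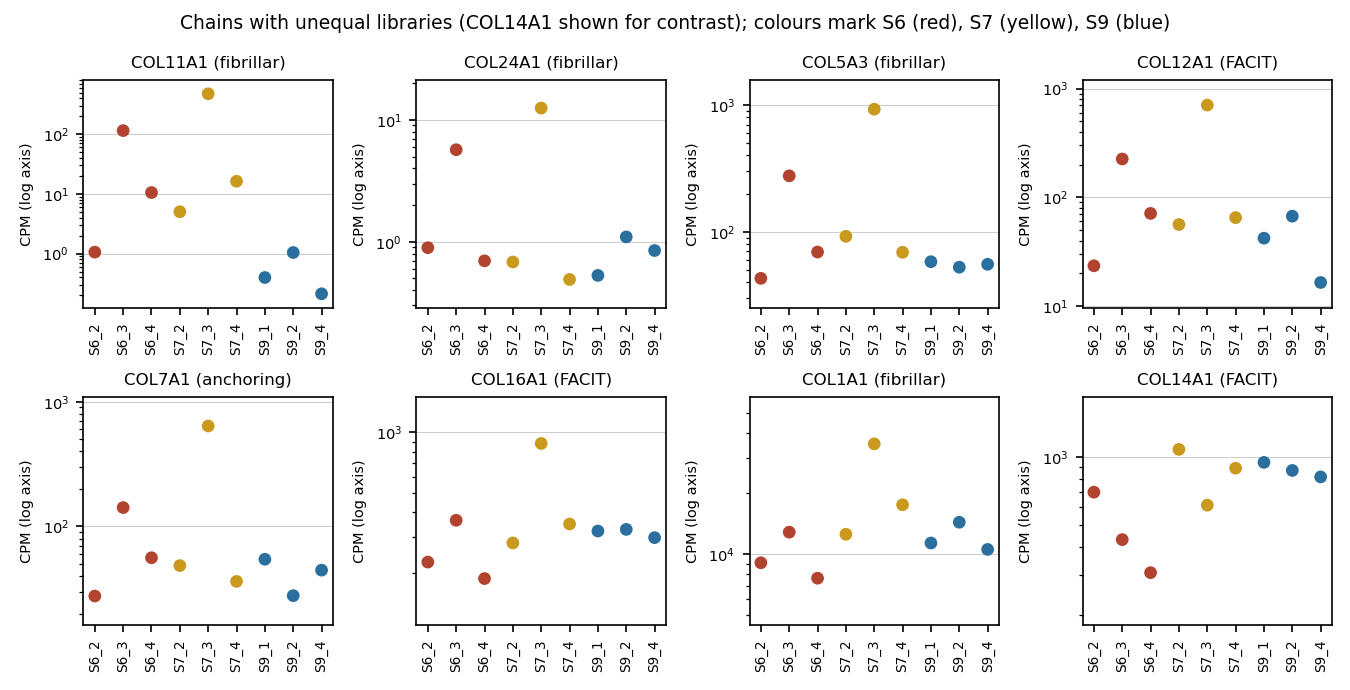
CPM on a log axis in each of the 9 libraries for 7 chains with unequal libraries and for COL14A1 as a contrast, coloured by group. S7_3 is the highest point in all panels except that of COL14A1, and S6_3 is second in the panels of COL11A1, COL24A1, COL5A3, COL12A1, COL7A1 and COL16A1.

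Among FACIT collagens, COL12A1 and COL14A1 encode related proteins that bind the surface of type I fibrils. COL12A1 measured 23.5, 225 and 71.2 CPM in S6, 56.3, 706 and 65.1 CPM in S7 and 42.1, 67.2 and 16.5 CPM in S9. S7_3 was 9.92 times and S6_3 was 3.17 times the highest of the other 7 libraries. COL14A1 measured 698, 431 and 308 CPM in S6, 1080, 612 and 892 CPM in S7 and 946, 871 and 816 CPM in S9, so that S6_3 and S7_3 were among its 3 lowest libraries. Its S9 libraries all lay above its S6 libraries, and the log2 fold change of 0.87 (SE 0.31) did not pass (edgeR adjusted p = 0.0962). The COL14A1 to COL12A1 ratio of FPKM ran from 1.28 to 73.2 over the libraries.

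COL16A1, a FACIT chain found near basement membranes and fibrils, followed the type I chains: 226, 364 and 187 CPM in S6, 281, 880 and 349 CPM in S7 and 322, 328 and 299 CPM in S9. COL19A1, a rare chain of basement membrane zones, rose in S9 against S6. It measured 0.163, 0.212 and 0.268 CPM in S6, 1.72, 0.701 and 0.926 CPM in S7 and 2.75, 1.94 and 0.926 CPM in S9. Every S7 and S9 library was above every S6 library. The log2 fold change was 3.11 (adjusted p = 0.0235 in edgeR, SE 0.62) in S9 against S6 and 2.36 (adjusted p = 0.125 in edgeR, SE 0.61) in S7 against S6. These levels rest on few reads, 6 to 10 counts in the S6 libraries and 35 to 104 in those of S9. The call was lost when S6_3, S6_4, S9_1 or S9_2 was left out, with fold changes between 2.74 and 3.32.

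COL21A1, a FACIT chain of vessel walls, measured 25, 27.2 and 22.5 CPM in S6, 30.1, 24.7 and 38.7 CPM in S7 and 45.8, 61.9 and 32.1 CPM in S9. Its S9 libraries lay above its S6 libraries, and its log2 fold change of 0.90 (SE 0.25) stood just outside the threshold (edgeR adjusted p = 0.0502). COL9A3 encodes a chain of type IX collagen, which in cartilage is a trimer with the products of COL9A1 and COL9A2. It measured 26.9 to 80.9 CPM, lowest in S7_3 and highest in S6_2, while COL9A2 stood at 0.429 to 2.92 CPM and COL9A1 under the count minimum. COL22A1 did not exceed 0.849 CPM. As a class, 7 of 8 FACIT chains had a log2 fold change above 0 in S9 against S6, with a median of 0.83. Of the 8, 1 was called, against 12.4% of all genes tested. In S7 against S6, 7 of 8 were above 0 with a median of 0.78 and 0 called. In S9 against S7, 6 of 8 were above 0 with a median of 0.10.

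**Figure D4:**
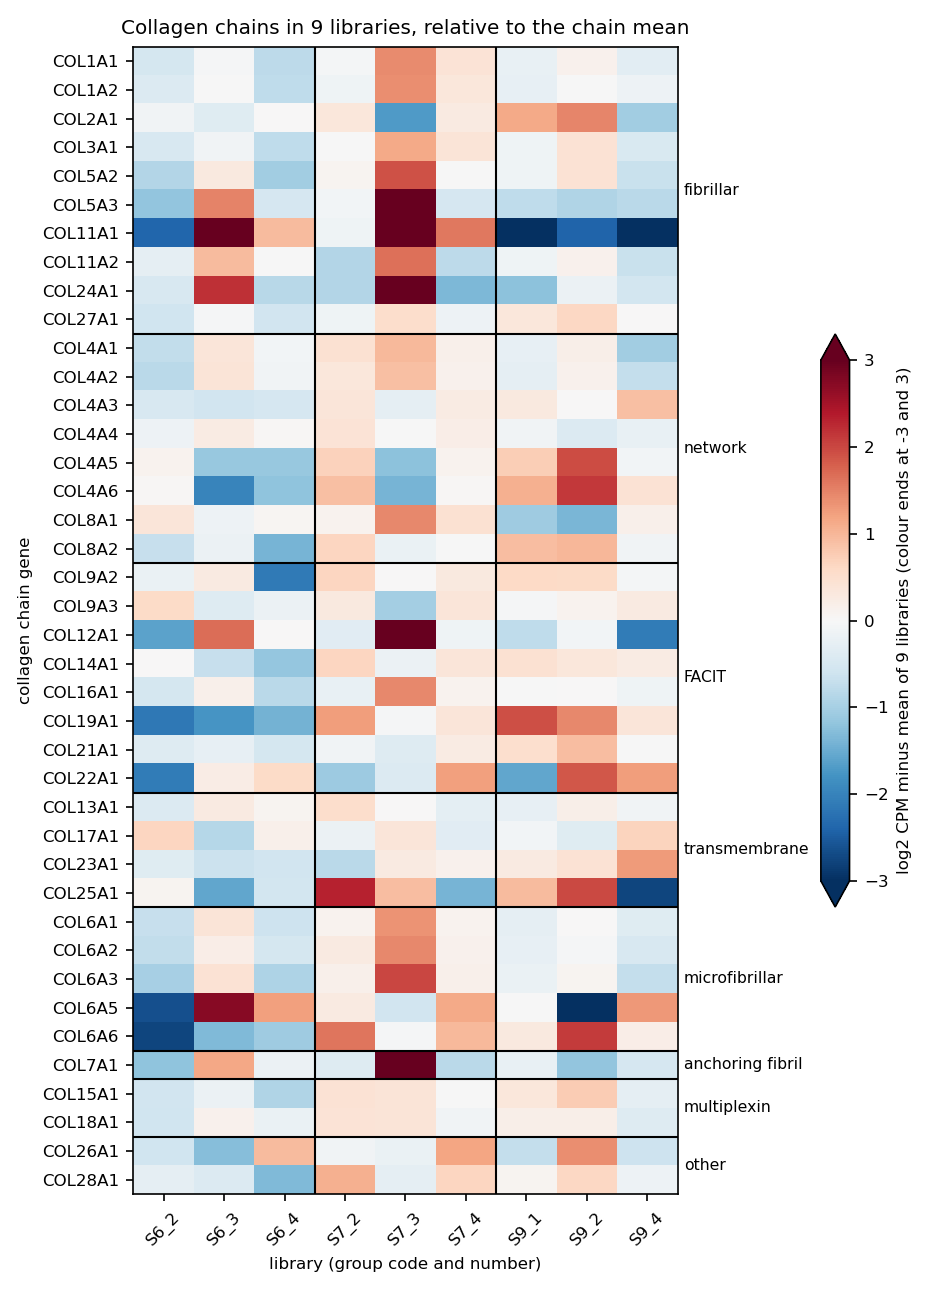
Heat map of the 40 chains in the 9 libraries, as log2 CPM minus the chain's mean over the libraries, with chains grouped by class and libraries by code. S7_3 is dark red for COL11A1, COL5A3, COL24A1, COL12A1 and COL7A1, and the S6 columns are blue for COL19A1 and COL6A6.

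Type IV collagen is assembled from 6 chains. COL4A1 and COL4A2 form the common basement membrane trimer. COL4A1 measured 392, 834 and 617 CPM in S6, 889, 1276 and 720 CPM in S7 and 546, 735 and 316 CPM in S9. COL4A2 measured 199, 460 and 328 CPM in S6, 445, 661 and 383 CPM in S7 and 293, 385 and 215 CPM in S9, in a nearly fixed ratio to COL4A1, 0.553 to 0.752 per length. The groups overlapped for both, and neither passed in any contrast.

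COL4A5 and COL4A6, whose products join in the basement membranes of smooth muscle and of some epithelia, varied otherwise. COL4A5 measured 204, 87.0 and 85.7 CPM in S6, 308, 81.0 and 204 CPM in S7 and 316, 734 and 178 CPM in S9. COL4A6 measured 153, 37.5 and 64.1 CPM in S6, 280, 56.5 and 151 CPM in S7 and 311, 652 and 201 CPM in S9. All S9 libraries of COL4A6 lay above all S6 libraries, and its log2 fold change of 2.19 (SE 0.71) did not pass (edgeR adjusted p = 0.0744). S6_3 and S7_3, the highest 2 libraries for the minor fibrillar chains COL5A3, COL11A1 and COL24A1, were the lowest 2 libraries for COL4A6. The COL4A5 and COL4A6 pair made up 36.6%, 8.47% and 13.2% of summed type IV FPKM in S6, 29.6%, 6.39% and 23.6% in S7 and 41.6%, 54.2% and 40.2% in S9, so that the share was higher in each S9 library than in every other library.

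Smooth muscle genes moved in the same contrast. Of 10 smooth muscle markers, 8 rose in S9 against S6, with the smallest p for SMTN, MYOCD and ACTA2. Of all genes tested, 6.02% rose there. The summed level of the 10 markers was 2163 to 3829 CPM in S6, 3570 to 11674 CPM in S7, where S7_3 was lowest, and 7046 to 13419 CPM in S9. Its part in the type IV values was not tested. In RNA of whole tissue, fewer cells of a type and less RNA per cell cannot be told apart.

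COL4A3 and COL4A4, chains of specialised basement membranes such as that of the kidney glomerulus, were at most 9.85 CPM. COL4A3 measured 1.73, 1.63 and 1.72 CPM in S6, 3.11, 2.02 and 2.89 CPM in S7 and 2.99, 2.44 and 4.53 CPM in S9, and COL4A4 measured 6.74, 8.81 and 7.61 CPM in S6, 9.85, 7.33 and 8.55 CPM in S7 and 6.93, 5.61 and 6.41 CPM in S9. The ratio of COL4A4 to COL4A3 per length was 3.03, 4.19 and 3.45 in S6, 2.46, 2.83 and 2.30 in S7 and 1.80, 1.79 and 1.10 in S9. No library of 1 code overlapped with another code in this ratio, which was picked out after its values were seen and is given with no test.

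**Figure D5:**
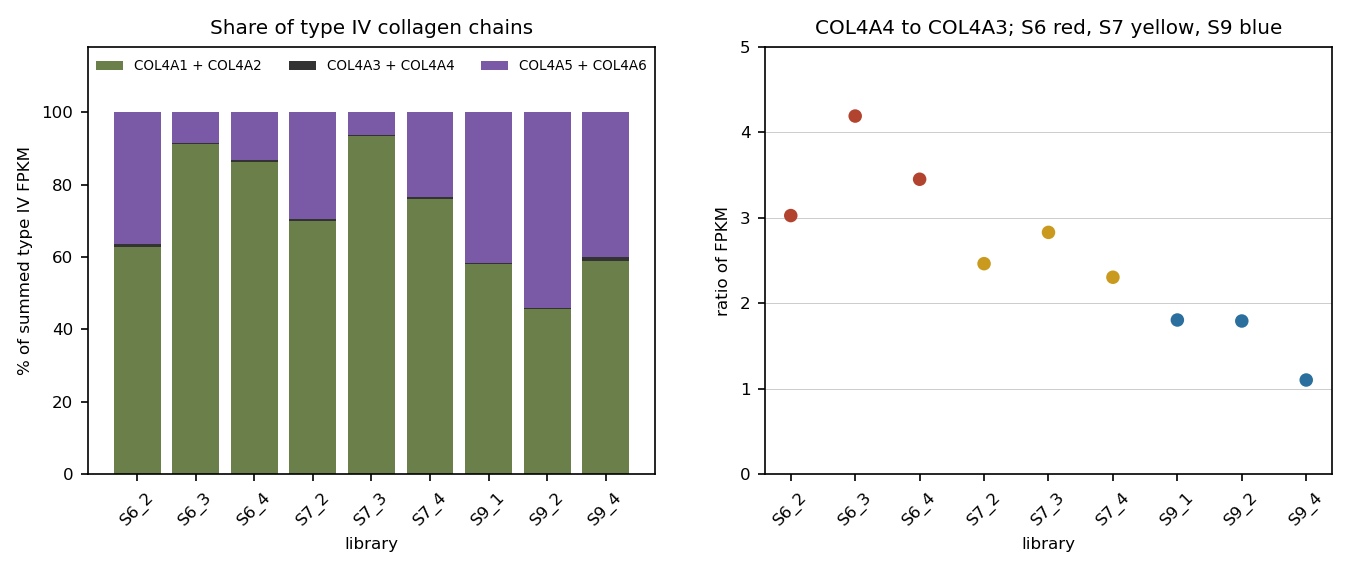
Left, the share of summed type IV FPKM held by each pair of chains in each library; right, the ratio of COL4A4 to COL4A3 FPKM in each library, coloured by group. The COL4A5 and COL4A6 pair holds 40.2% to 54.2% in S9 and 6.39% to 36.6% elsewhere, and the ratio runs from 4.19 in S6_3 to 1.10 in S9_4.

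Of the type VIII chains, which form hexagonal lattices and are made by vessel walls, COL8A1 measured 103, 72.1 and 83.1 CPM in S6, 85.4, 216 and 109 CPM in S7 and 37.9, 31.1 and 88.6 CPM in S9. COL8A2 measured 13.9, 19.8 and 8.50 CPM in S6, 34.6, 19.5 and 22.1 CPM in S7 and 42.3, 44.4 and 20.8 CPM in S9. COL8A2 was higher in every S9 library than in any S6 library, with a log2 fold change of 1.35 (adjusted p = 0.0543 in edgeR, SE 0.39). COL8A1 had the opposite sign, -0.71 (adjusted p = 0.312 in edgeR, SE 0.45), and its groups overlapped through S9_4.

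Type VI collagen is a trimer of the alpha1 and alpha2 chains with one other, most often alpha3. COL6A1 measured 550, 1163 and 572 CPM in S6, 950, 2253 and 949 CPM in S7 and 732, 895 and 688 CPM in S9. COL6A2 measured 727, 1374 and 830 CPM in S6, 1444, 3262 and 1307 CPM in S7 and 1022, 1166 and 869 CPM in S9. COL6A3 measured 365, 984 and 381 CPM in S6, 809, 2908 and 804 CPM in S7 and 631, 764 and 443 CPM in S9. For all 3 chains every S9 library lay below every S7 library, with log2 fold changes of -0.84, -0.98 and -1.30 that did not pass (edgeR adjusted p between 0.538 and 0.562). Without S7_3 they were -0.29, -0.42 and -0.39. The ratio of COL6A2 to COL6A1 per length stayed between 0.864 and 1.11.

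COL6A6 and COL6A5 encode chains that can take the place of alpha3. COL6A6 rose in S9 against S6. It measured 0.190, 0.515 and 0.617 CPM in S6, 3.87, 1.26 and 2.53 CPM in S7 and 1.56, 5.48 and 1.48 CPM in S9, with every S6 library below every other library. The log2 fold change was 2.68 (adjusted p = 0.0474 in edgeR, SE 0.74) in S9 against S6, and 2.53 (adjusted p = 0.146 in edgeR, SE 0.73) in S7 against S6. Its call was lost without any one of S6_2, S6_3, S6_4, S7_2, S7_4, S9_1 and S9_2, and the fold change was 1.78 without S9_2. COL6A5 had no such order: 0.244, 9.99 and 3.57 CPM in S6, 1.83, 1.02 and 3.32 CPM in S7 and 1.51, 0.137 and 3.71 CPM in S9.

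Of the transmembrane collagens, COL17A1 is a hemidesmosome protein of basal epithelial cells. It measured 105, 37.2 and 75.3 CPM in S6, 60.0, 87.7 and 53.2 CPM in S7 and 64.3, 52.8 and 108 CPM in S9, with overlapping groups and log2 fold changes between -0.12 and 0.17. COL23A1, a transmembrane chain found at epithelial surfaces, rose in S9 against S6. It measured 12.7, 10.4 and 11 CPM in S6, 9.28, 19.7 and 17.9 CPM in S7 and 19.5, 22 and 39.5 CPM in S9. All S9 libraries were above all S6 libraries, and the log2 fold change was 1.25 (adjusted p = 0.0476 in edgeR, SE 0.34). That call was lost when S6_2, S6_3, S6_4, S7_4, S9_1, S9_2 or S9_4 was left out, with fold changes between 0.89 and 1.45. COL13A1 was among the steadiest chains, at 6.09 to 11.7 CPM, and COL25A1 did not exceed 1.77 CPM. Of the 11 urothelial and basal epithelial markers, 0 passed in edgeR in any contrast. In S9 against S6, 5 had an unadjusted p under 0.05 and DESeq2 called 3, against 31.2% and 24.2% of all genes.

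COL7A1, the chain of anchoring fibrils, measured 27.7, 142 and 56.2 CPM in S6, 48.6, 639 and 36.3 CPM in S7 and 54.6, 27.9 and 44.7 CPM in S9. S7_3 was 11.4 times and S6_3 was 2.52 times the highest of the other 7 libraries. The log2 fold change of S7 against S6 was 1.68 (adjusted p = 0.461 in edgeR, SE 1.05) with all libraries and -0.81 without S7_3. The same turn of sign without S7_3 was seen for COL11A1 (1.98 to -1.97), COL5A3 (1.49 to -0.67), COL24A1 (0.91 to -2.02) and COL12A1 (1.37 to -0.80). With both S6_3 and S7_3 left out, the values were 0.01 for COL7A1, 0.87 for COL11A1, 0.52 for COL5A3, -0.44 for COL24A1 and 0.35 for COL12A1.

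Among the multiplexins, COL15A1 measured 215, 283 and 173 CPM in S6, 437, 420 and 319 CPM in S7 and 405, 540 and 268 CPM in S9. Its S7 libraries all lay above its S6 libraries, while S9_4 fell between S6_2 and S6_3, and its log2 fold changes against S6 were 0.81 (adjusted p = 0.197 in edgeR, SE 0.28) for S7 and 0.85 (adjusted p = 0.0781 in edgeR, SE 0.28) for S9. COL18A1, whose C-terminal end gives the fragment endostatin, measured 98.7, 165 and 131 CPM in S6, 200, 197 and 139 CPM in S7 and 169, 171 and 114 CPM in S9, a span of 2.03 times over all libraries. COL28A1, a chain associated with peripheral nerve, measured 5.07, 4.54 and 2.44 CPM in S6, 12.7, 5.03 and 9.48 CPM in S7 and 6.43, 9.39 and 5.43 CPM in S9. All its S9 libraries were above those of S6 (log2 fold change 0.82, adjusted p = 0.218 in edgeR, SE 0.42). In S7 against S6 its log2 fold change was larger, 1.17 (adjusted p = 0.204 in edgeR, SE 0.42), with S7_3 just below S6_2. Of 7 Schwann cell markers 3 rose in S9 against S6, SOX10, NCAM1 and NGFR, against 6.02% of all genes tested. The summed level of the 7 markers was 64.2 to 212 CPM in S6, 98.0 to 308 CPM in S7 and 296 to 419 CPM in S9. Its part in COL28A1 was not tested.

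Several chains share a neighbour: in the RefSeq annotation of assembly mOryCun1.1, COL4A1 and COL4A2, COL4A3 and COL4A4, COL4A5 and COL4A6, COL3A1 and COL5A2, COL6A1 and COL6A2, and COL6A5 and COL6A6 lie next to each other. Over the 9 libraries the SD of the log2 ratio of 2 neighbours was 0.13 for COL4A2 and COL4A1, 0.11 for COL6A2 and COL6A1, 0.39 for COL5A2 and COL3A1, 0.40 for COL4A5 and COL4A6 and 0.58 for COL4A3 and COL4A4. It was 2.64 for COL6A6 and COL6A5. These 2 chains rest on few reads, 7 to 200 counts per library for COL6A6 and 5 to 330 for COL6A5, so counting noise adds to that spread. The ratio of neighbouring chains thus ranged from nearly fixed to widely varying.

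The proteins that make, process, bind and break collagen were counted in the same fits. In S9 against S6, the share of all genes tested to set beside each count below was 12.4% in edgeR, 6.02% higher and 6.34% lower. At an unadjusted p under 0.05 the share was 31.2%, and DESeq2 called 24.2%. The difference between these shares and the lists was not tested. In S7 against S6 and in S9 against S7, edgeR called 0 members of every list below, and 0.111% and 0% of all genes tested. DESeq2 called up to 7 of a list in S7 against S6 (neutrophil and macrophage markers), against 8.33% of genes. In S9 against S7, DESeq2 called 5 of those markers, against 0.723% of genes. It also called 2 collagenases and gelatinases, 1 gene of synthesis and folding and 1 fibril-binding protein there. Of 21 genes of collagen synthesis and folding, 1 rose in S9 against S6: MIA3, which loads procollagen for export from the endoplasmic reticulum (log2 fold change 0.52, adjusted p = 0.0409 in edgeR, SE 0.14). P4HB, a subunit of prolyl hydroxylase and the most abundant of this list, measured 617, 647 and 846 CPM in S6, 611, 887 and 742 CPM in S7 and 467, 580 and 551 CPM in S9. The list's summed level was highest in S7_3, at 4811 CPM against 1956 to 3145 CPM in the other libraries.

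Of 12 genes of procollagen processing and crosslinking, 0 passed in edgeR, with 2 at an unadjusted p under 0.05 and 1 called by DESeq2 in S9 against S6. The median log2 fold change was 0.0042 in S9 against S6, 0.82 in S7 against S6 and -0.63 in S9 against S7. Its most abundant member was the crosslinking enzyme TGM2. Of 8 collagen receptors and uptake genes, 1 rose in S9 against S6, the collagen-binding kinase DDR2. It measured 80.0, 70.2 and 61.5 CPM in S6, 174, 106 and 134 CPM in S7 and 204, 187 and 164 CPM in S9, a log2 fold change of 1.39 (adjusted p = 0.0146 in edgeR, SE 0.20). All S6 libraries lay below all others. ITGB1, the shared beta chain of collagen-binding integrins, was the most abundant of this list.

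Of 6 tested collagenases and gelatinases, 2 fell in S9 against S6. MMP1, which cleaves fibrillar collagen, measured 22.1, 49.5 and 23.5 CPM in S6, 1.83, 15.5 and 7.68 CPM in S7 and 0.609, 0.630 and 0.397 CPM in S9 (log2 fold change -5.85, adjusted p = 0.0132 in edgeR, SE 0.80). MMP9, a gelatinase also carried by neutrophils, measured 4.93, 15.9 and 16.8 CPM in S6, 3.33, 11.9 and 1.80 CPM in S7 and 1.06, 0.301 and 0.265 CPM in S9 (log2 fold change -4.52, adjusted p = 0.0248 in edgeR, SE 0.93). MMP2, the most abundant, did not pass, and MMP8 had 0 counts in every library. Of 15 fibril-binding proteins, 2 rose in S9 against S6, the small proteoglycans FMOD (log2 fold change 0.85, adjusted p = 0.0349 in edgeR, SE 0.21) and OGN (1.33, adjusted p = 0.0441 in edgeR, SE 0.36); SPARC, the most abundant, did not pass. Of 11 genes of collagen-inducing signals, among which the receptor TGFBR2 was the most abundant, 0 passed in edgeR, with 2 at an unadjusted p under 0.05 and 1 called by DESeq2 in S9 against S6.

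Markers of other cells differed between the groups in which collagen chains were compared. In S9 against S6, edgeR called 6.02% of all genes tested higher and 6.34% lower. Of 10 neutrophil and macrophage markers, 9 fell in that contrast, with the smallest p for S100A12, S100A8 and S100A9. The summed level of the 10 markers was 8891 to 16643 CPM in S6, 3067 to 6724 CPM in S7 and 538 to 933 CPM in S9. Of 10 fibroblast markers, 2 rose (TCF21 and MFAP5), and the summed level was 5881 to 8723 CPM in S6, 9678 to 13194 CPM in S7 and 8800 to 10635 CPM in S9. Of 10 endothelial markers 3 rose, ROBO4, CLDN5 and EMCN, and of 5 tested cartilage markers 1 rose, CHAD. The skeletal muscle gene MYH1 had 0 counts in every library, and DES, which smooth muscle also makes, was the only called gene of that list. The most abundant genes of these lists were S100A12, DCN, VWF and SOX9. The part of these cell types in the collagen values was not tested.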

How the data were processed

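RNA of rabbit urethral tissue was measured in 9 libraries. The authors deposited whole-number read counts per gene, not normalized, made with fastp, HISAT2 and HTSeq per the submitters' processing notes. Their versions, the genome build and the strand setting are not stated in any label or header. FPKM values, also deposited by the authors, equalled count over column total and gene length in 172953 of 172961 values above 0 (relative tolerance 1e-06). They hold the same reads and gave lengths, ratios and an alternative test.

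Genes were kept by filterByExpr (minimum count 10, minimum total 15), scaled by TMM and fitted in 1 model of 3 groups with robust quasi-likelihood (edgeR 4.0.16, R 4.3.3, 6 residual degrees of freedom, biological coefficient of variation 41.9%), tested on simulated data. P-values were adjusted over 17102 genes. Depth was even, so the number of libraries limits precision, except for chains under about 1 CPM. Alternatives used DESeq2 1.42.0 and limma 3.58.1 (voom with a weight for each library, and trend on log2 FPKM with a pseudocount of 1 or 0.1). They also used other scalings and filters, a replicate block, a term for the ATP6 class and each library left out. Leaving out both S6_3 and S7_3 was chosen after seeing the data.

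Chains, classes and gene lists were chosen with earlier results of these data known, and no list was tested as a set. The rule for values per library took chains called in any test, the highest of each class, and COL1A1, COL1A2, COL3A1, COL5A1 (not analysed here), COL5A2, COL4A1, COL4A2, COL6A1, COL6A2, COL6A3, COL7A1, COL12A1, COL14A1, COL17A1 and COL18A1. Other chains were named after their values were seen. Of other lists, up to 3 called genes with the smallest p and the most abundant were named, except for a gene that is not reported here. Reads of similar chains can be split, and antisense genes cannot be told apart, by counting whose strand setting is unknown.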

Additional observations from a re-analysis of the deposited data

How the results depend on the processing

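In S9 against S6, where 3 chains were called, DESeq2 called 11, limma-voom 10, limma-trend 0 with a pseudocount of 1 FPKM and 1 with 0.1, a term for the ATP6 class 5, the 6 libraries with high ATP6 alone 0, and the fit without S6_3 and S7_3 1 (COL27A1). Leaving out 1 library gave 0 to 5 chains: 0 without S6_3, S6_4, S9_1 or S9_2, 1 without S7_4 and 5 without S7_3 or S9_4. COL11A1, called without S7_3, was lower in S9. Over all genes tested the count was 2115, 4112 in DESeq2 and 4061 in limma-voom. It was 2076 without S7_3 and 1947 without S9_4, and fell to 1197 without S7_4 and 1025 without S6_3. It fell further to 89 without S6_4, 4 without S9_2 and 0 without S9_1. In S7 against S6, where 0 chains were called, DESeq2 called 3. For the 3 groups together, where 0 were called, DESeq2 called 10, limma-voom 5, the ATP6 term 1, and leaving out 1 library gave 0 to 1 (1 without S9_4). In S9 against S7 the count was 0 in every alternative run. For all these counts the cause was not tested. Of the COL3A1 to COL1A1 ratio, the log2 difference of S9 against S6 was -0.0312 to 0.1852 over the fits that leave out 1 library, reversed without S9_2, and that of S7 against S6 was 0.0043 in the libraries with high ATP6. Of 1914 values of single chains under an alternative, 1848 kept their side of the threshold, though 69 of these, none of them called, changed sign. Of the rest, 30 passed there but not in the reported fit and 36 lost their call, and no called chain reversed. The 1914 values cover only part of the 40 chains. They leave out COL4A3, called by DESeq2, and COL9A2, called by limma-voom, in S9 against S6.

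The numbers after the codes do not pair the libraries by any label. Correlations of same-numbered libraries' deviations ran from -0.095 to 0.224, and those of differently numbered libraries from -0.232 to 0.14. S6_4 with S9_4 (0.224), S6_2 with S7_2 (0.178) and S6_3 with S7_3 (0.165) lay above every differently numbered pair. The other same-numbered pairs, from -0.095 to 0.088, did not. These values do not settle whether the numbers mark pairs. With the number as a replicate block the model called 0 chains in S9 against S6 and 16 genes over all. Chains under about 1 CPM, such as COL19A1, COL22A1 and COL25A1, rest on few reads.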

Other observations

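COL9A3 was measured at 80.9, 41.5 and 48.6 CPM in S6, 66.5, 26.9 and 70.2 CPM in S7 and 53.4, 59.1 and 65.9 CPM in S9, with a mean FPKM of 22.4, against 0.78 for COL9A2. The 3 groups overlapped, and S7_3, the highest library for 17 chains, was the lowest for COL9A3.

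By the library in which a chain was highest, S9_2 led 10 of 40 chains (25%) and S7_2 led 7 (17.5%). Of all genes tested, S9_2 was highest for 11.73% and S7_2 for 6.701%. S6_4 and S7_4 led 0 chains, against 9.93% and 4.18% of genes. S6_2, S6_3 and S9_1 led 1 chain each (2.5%), against 11.58%, 21.58% and 14.66% of genes. S6_2 was the lowest library for 12 of 40 chains, against 2060 of 17102 genes (12.045%). S6_4 was the lowest for 11 of 40 chains, against 2119 of 17102 genes (12.39%). The difference between chains and genes was not tested.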
